A study of Mus musculus with 98 samples.

Results

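DNA ends made by the RAG recombinase at 2 chromosomal places were compared within 3 mouse cell lines that lack DNA ligase IV and also lack H2AX or 53BP1. The places were Jk1, a joining segment of the immunoglobulin kappa locus (Igkj1), and a chromosomal recombination substrate. The tables of these lines were chosen by the genotype, line and break that the labels give. This pairing was proposed with earlier results of these data known, but its choice of tables uses no measured value. The limit on loss given below was taken from the positions that the tables reach. The chosen tables are 6 of the 17 tables of end structures of the series and pool 18 of its 49 libraries, which were deposited as 36 of 98 read files.

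All cells were G1-arrested mouse pre-B cells, made into lines with the Abelson kinase. The lines were Ligase IV -/- H2AX -/- line 5 (CJ 48), Ligase IV -/- H2AX -/- line 8 (CJ 148) and Ligase IV -/- 53BP1 -/- line B (CJ 6), called H2AX line 5, H2AX line 8 and 53BP1 line B here. Lines A (CJ 1) and B (CJ 7), deficient for ligase IV alone, gave the background measured in the same way, called Lig4-/- lines A and B. Every line compared thus lacks ligase IV. The sample titles give 48 h for H2AX line 8, 53BP1 line B and both Lig4-/- lines, and no time for H2AX line 5. The tag shNT, with no explanation in the labels, stands in the titles of Lig4-/- line B. H2AX line 8 was sequenced in run set 2 and the other 4 lines in run set 4. 53BP1 loss is represented by 1 line, and whether any line is a single clone is not given in the labels.

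RAG cuts antigen receptor genes beside their recombination signals and leaves coding ends that are first closed as hairpins and then opened for joining. The labels do not state whether these PCRs read coding or signal ends. Without ligase IV, the ligase that finishes non-homologous end joining, opened ends stay unjoined. The histone variant H2AX and the chromatin-bound protein 53BP1 are known for shielding such unjoined ends from nucleases in G1 cells, and their absence is known for letting the strands be trimmed. A recombination substrate is an engineered copy of recombination signals placed elsewhere in the genome, so that the same nuclease makes a break in another surrounding sequence.

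The assay, hairpin capture of DNA end structures (HCoDES), seals both strands of an end into a hairpin with a single-stranded DNA ligase, followed by bisulphite treatment, PCR and paired MiSeq sequencing. Each deposited row is an end structure with its read count. Its columns place the stop of the 5'-ending strand and give the overhang. Loss was counted in nucleotides (nt) from the lowest position in the RAG tables, which was taken as the break. Another true origin would shift the losses at a site alike. Both sites were limited to a loss of at most 171 nt from the 5'-ending strand, the extent that all 10 RAG tables of the 5 lines reach. Inside that window the Jk1 tables held 170851 reads in H2AX line 5, 157541 in H2AX line 8 and 257382 in 53BP1 line B. The substrate tables held 64572, 62673 and 291886 reads in the same order. A share of all ends had an exact Clopper-Pearson 95% upper bound at most 0.391 points above it, and a share within a loss bin at most 1.74 points. PCR reads are not independent molecules, so these bounds cover counting error only. Each table pools 3 libraries, so the replicate is the cell line.

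Each line's reads at Jk1 and at the substrate were compared for 26 classes of ends (Fisher's exact test, two-sided), with Benjamini-Hochberg adjustment over 78 tests. A difference was called when all 3 lines moved the same way and each adjusted p was below 0.05. Of the 26 classes, 9 were called, or 34.6%, with 3 higher at Jk1 and 6 higher at the substrate. The Fisher tests compare pools of reads and make small differences pass. An exact two-sided sign-flip permutation test over 3 lines cannot give a p below 0.25, and it gave that value for every called class. The spread between lines is therefore printed beside each difference.

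Ends that kept nearly all of their 5'-ending strand were more frequent at Jk1 than at the substrate in all 3 lines. The share of resected ends, those whose 5'-ending strand was shorter by 10 nt or more, was 87.8% at Jk1 and 95.3% at the substrate in H2AX line 5. It was 83.8% and 91.9% in H2AX line 8. It was 84.6% and 95.7% in 53BP1 line B. The 3 Jk1 values all lay below the 3 substrate values, with a gap of 4.08 points between the sites and a largest spread of 3.94 points between lines at a site. Jk1 minus substrate was -8.88 ± 1.96 points (SD, n = 3 lines) and was called, with adjusted Fisher p of 0 to the precision of the software in each line. Thus 12.2%, 16.2% and 15.4% of ends lay within 10 nt of the break at Jk1, against 4.73%, 8.13% and 4.29% at the substrate.

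The same difference held with both strands required to have lost 10 nt or more, at -8.54 ± 2.18 points (SD, n = 3 lines; called). Counting each distinct structure once instead of by its reads turned the resected share to 2.47 points more at Jk1, no longer called (largest adjusted p = 0.440 in Fisher's exact test). The higher share of near ends at Jk1 thus lay in how often near structures were read, not in how many distinct ones were listed. In the Lig4-/- lines the resected share was 32.4% at Jk1 and 54.5% at the substrate in line A. In line B it was 54.4% and 57.4%. Their site differences, -22.1 and -2.96 points, lay on both sides of those of the 3 lines without H2AX or 53BP1. The contrast between both sets of lines was 3.65 points, with p = 0.80 in an exact two-sided permutation test of 3 lines against 2, whose smallest possible p is 0.20.

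Near ends stopped at different nucleotides at each site. At Jk1 the most used near position was a loss of 4 nt from the 5'-ending strand, with 6.35%, 9.55% and 7.70% of all ends in H2AX line 5, H2AX line 8 and 53BP1 line B. The same position held 0.452%, 0.313% and 0.00788% at the substrate. Near ends at the substrate lay mainly at losses of 0 and 2 nt. A loss of 2 nt held 1.14%, 3.26% and 1.06% of all ends at the substrate and 0.0105%, 0.115% and 0.115% at Jk1. Among near ends alone, the 4-nt position made up 52.0%, 59.1% and 49.95% at Jk1. At the substrate the 2-nt position made up 24.2%, 40.1% and 24.7%, and the position without loss made up 39.0%, 17.1% and 58.4%. The lines differed most in that last value, with H2AX line 8 low and 53BP1 line B high.

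**Figure D1:**
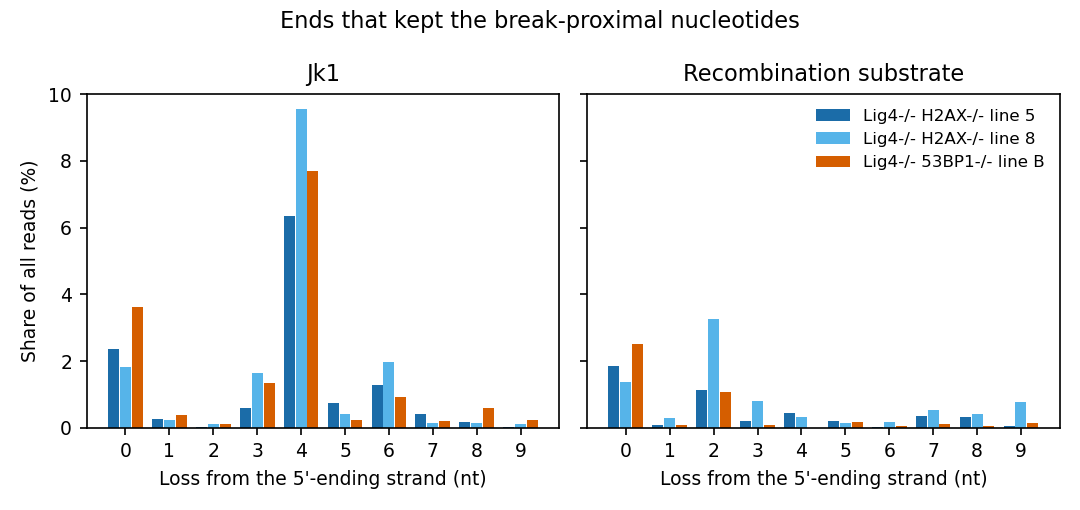
Share of all reads (vertical axis, %) whose 5'-ending strand had lost 0 to 9 nt (horizontal axis), at Jk1 and at the recombination substrate, 1 bar per cell line. The bars at 4 nt reach 6.35% to 9.55% at Jk1 and at most 0.452% at the substrate, where the 2-nt bar of H2AX line 8 is the tallest at 3.26%.

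Single structures showed the same split. The blunt end with 4 nt lost from each strand held 2.17% of reads at Jk1 in H2AX line 5, 3.60% in H2AX line 8 and 2.79% in 53BP1 line B. At the substrate it held 0.00619%, 0.00319% and 0.000685%. All 3 lines were high at Jk1 and the sites did not overlap (called, mean difference 2.85 points). Its share at Jk1 was higher still in the Lig4-/- lines, at 12.1% and 7.49%, against 0.245% and 0.224% at their substrate. The 4-nt 3' overhang made from the same 5' stop, with the 3'-ending strand intact, held 0.834%, 1.40% and 1.30% at Jk1 and 0.00619%, 0.0463% and 0.00137% at the substrate (called). Its counterpart was a 2-nt 3' overhang in which only the 5'-ending strand was shortened, by 2 nt. It held 0.554%, 1.26% and 0.439% at the substrate and was listed in no Jk1 table (called). In the Lig4-/- lines the 4-nt overhang held 9.66% and 8.25% at Jk1 and 0.209% and 0.172% at the substrate. The 2-nt overhang held 9.38% and 8.16% at their substrate and was not listed at their Jk1. The first structure was named for its rank and its large difference at Jk1. The last 2 structures were chosen for description after their values were seen. The calls of all 3 therefore describe the split and do not test it.

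The end with no loss on either strand was common at both sites. It held 2.30%, 1.68% and 3.30% of reads at Jk1 and 1.61%, 0.999% and 2.34% at the substrate in H2AX line 5, H2AX line 8 and 53BP1 line B. An end still closed as a hairpin would also be read as this structure. Values overlapped between sites across lines, but within each line Jk1 was higher, by 0.775 ± 0.155 points (SD, n = 3 lines; called, largest adjusted p = 2.88e-26 in Fisher's exact test). The Lig4-/- lines differed in the opposite direction, by -0.807 and -1.10 points. The contrast between both sets of lines was 1.73 points (exact permutation p = 0.20, the smallest that 3 lines against 2 can give). The difference was no longer called, at 0.0573 points, when the window ended 20 nt earlier. It turned to -0.392 points when each table's 10 most abundant structures were left out, and to -0.254 points among ends that had lost less than 100 nt. It was -0.0104 points with each structure counted once.

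Far from the break the stops again gathered in different places. Between 130 and 149 nt of loss lay 30.0%, 36.4% and 36.4% of Jk1 ends in H2AX line 5, H2AX line 8 and 53BP1 line B, against 11.2%, 14.5% and 10.2% of substrate ends. Between 160 and 171 nt lay 1.87%, 2.67% and 1.91% of Jk1 ends, against 21.3%, 33.9% and 32.4% of substrate ends. Neither range had values that overlapped between the sites. These ranges were chosen from the profiles, so they carry no test. The Lig4-/- lines, with far fewer long losses, had 4.83% and 12.2% of Jk1 ends at 130 to 149 nt. At the substrate they had 3.63% and 1.97% there. Between 160 and 171 nt they had 0.116% and 1.61% of Jk1 ends and 4.07% and 5.48% of substrate ends.

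**Figure D2:**
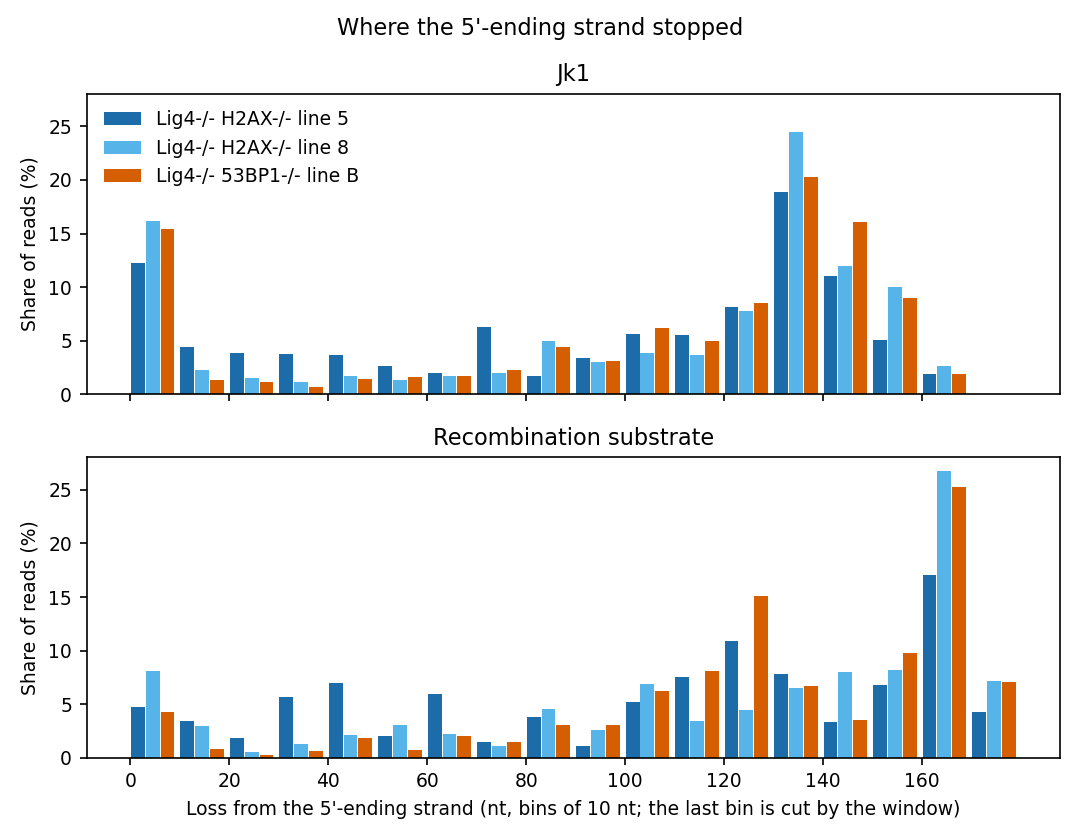
Share of reads (vertical axis, %) by loss from the 5'-ending strand in bins of 10 nt (horizontal axis), for Jk1 (top) and the recombination substrate (bottom), 1 bar per cell line. All 3 lines peak at 130 to 149 nt at Jk1, where 30.0% to 36.4% of reads lie, and at 160 to 171 nt at the substrate, where 21.3% to 33.9% lie.

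The share of ends that had lost 100 nt or more depended on where counting stopped. Within 171 nt it was 56.2%, 64.4% and 66.9% at Jk1 and 62.9%, 71.4% and 81.8% at the substrate. Jk1 minus substrate was -9.54 ± 4.61 points (SD, n = 3 lines) and was called (largest adjusted p = 1.99e-192 in Fisher's exact test). With the window ended 20 nt earlier, the differences were 4.89, 8.22 and -6.37 points, so that both H2AX lines turned towards Jk1 and 53BP1 line B did not. With all positions of each table they were -12.4, -11.0 and -17.2 points. The substrate tables held 15.4%, 14.1% and 13.6% of their reads beyond 171 nt, and those of Jk1 held 0.00117%, 0.272% and 0.259%. The largest loss listed was 207 nt in each substrate table and 175, 179 and 179 nt at Jk1. No source used here says whether the Jk1 PCR could return longer losses, so site and amplified extent cannot be told apart at this end of the profile. The Lig4-/- lines differed by -4.73 points in line A and 11.1 points in line B.

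Typical losses were long at both sites. The 5'-ending strand had a median loss of 112, 127 and 127 nt at Jk1 and 120, 139 and 134 nt at the substrate. The 3'-ending strand had a median loss of 109, 129 and 132 nt at Jk1 and 115, 138 and 136 nt at the substrate. In each line both medians were lower at Jk1, by less than the gap between H2AX line 5 and the other lines. In the Lig4-/- lines the 5'-strand median was 4 and 13 nt at Jk1 and 12 and 13 nt at the substrate.

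Stop positions of the 5'-ending strand overlapped more between lines at one site than between both sites of one line. The overlap of 2 profiles was taken as the sum, over 172 positions, of the lower of both shares. Between lines at one site it ran from 54.1% to 68.9% over 6 pairs. Between the sites of one line it ran from 40.4% to 41.3% over 3 pairs. Between different lines at different sites it ran from 34.9% to 42.3% over 6 pairs. These overlaps are descriptions of the same 6 tables and carry no test. The pairs within a site include H2AX line 5 with 53BP1 line B, at 62.3% at Jk1 and 55.6% at the substrate. For the 3'-ending strand the overlaps were 41.7% to 71.5% within a site and 40.9% to 43.1% within a line. Different lines at different sites overlapped by 35.6% to 47.3%, so the ranges for this strand were not separate.

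**Figure D3:**
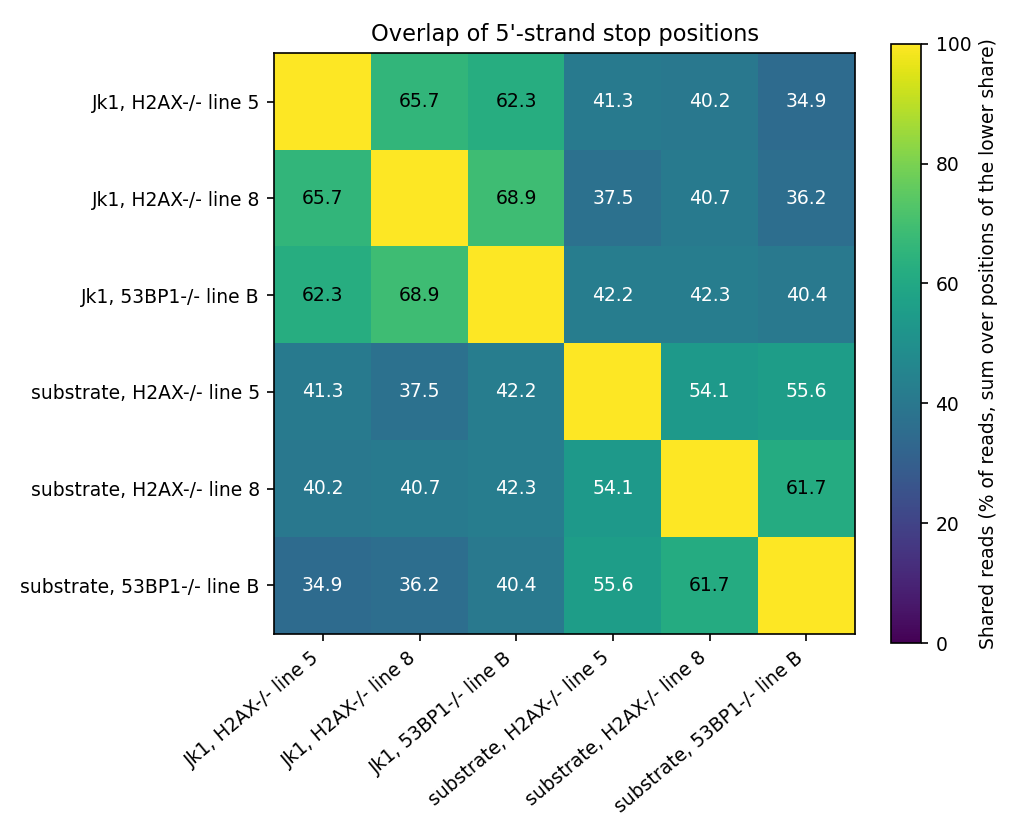
Overlap (colour and printed value, % of reads) of the 5'-strand stop positions for each pair of the 6 tables, the sum over positions of the lower of both shares. Values run from 62.3% to 68.9% among the 3 Jk1 tables and from 54.1% to 61.7% among the 3 substrate tables, and no pair across sites shares more than 42.3%.

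The leading positions are given as a description of each site. Among the 20 most used positions of each table, 9 were common to all 3 lines at Jk1. They were losses of 0, 4, 135, 136, 137, 139, 142, 145 and 147 nt. At the substrate 9 were common too, at 0, 109, 123, 153, 161, 164, 165, 168 and 170 nt. Only the position without loss stood in both sets. These positions were chosen for their rank at a site, so a higher sum there follows from the choice. The Jk1 set held 25.2% to 33.7% of reads at Jk1 and 5.70% to 7.18% at the substrate. The substrate set held 22.0% to 31.0% at the substrate and 4.25% to 7.17% at Jk1. A loss of 135 nt, for example, held 4.95%, 4.55% and 3.08% at Jk1 and 0.917%, 0.506% and 0.285% at the substrate. A loss of 170 nt held 4.22%, 3.92% and 5.88% at the substrate and was listed in no Jk1 table of these lines. Because the DNA sequences at the sites differ, equal losses at both sites are not the same nucleotides.

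Few whole structures, meaning the pair of stops on both strands, were shared. The 2055 structures tested were those in the window with 10 reads or more in at least 1 of the 6 tables. Of them, 956 were listed at Jk1 alone, 771 at the substrate alone and 328 at both, and 20 stood in all 6 tables. Of the same 2055, 1144 stood in 1 table only. A structure could pass this filter by its reads at 1 site alone. In all, 130 structures (6.33%) passed in either direction. Structures higher at Jk1 in all 3 lines, each with an adjusted Fisher's exact p below 0.05, numbered 69, or 3.36% of those tested. Structures higher at the substrate numbered 61, or 2.97%. Since these structures were selected for their difference, their summed shares are a description. The 69 held 25.6% to 35.1% of reads at Jk1 and 1.45% to 2.37% at the substrate. The 61 held 12.0% to 18.1% at the substrate and 0.0117% to 0.218% at Jk1. No substrate table listed 49 of the 69, and no Jk1 table listed 50 of the 61. Among all tested structures listed at Jk1, 956 were listed there alone and 328 at both sites. For the substrate these numbers were 771 and 328. Absence from the other site was thus frequent among all tested structures. Whether it was more frequent among those called cannot be read from these numbers. The 1144 structures in 1 table only are absent from the other site by construction, while a called structure must be listed in every line at its site. Structures listed in every line at a site numbered 151 for Jk1 and 142 for the substrate. Their absence from the other site was not counted. With 1 line left out, 108 to 152 were higher at Jk1 and 97 to 162 at the substrate, since fewer lines then had to pass.

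Of all 2055 structures tested, 5.06% had lost under 10 nt, 13.9% had lost 130 to 149 nt and 10.7% had lost 160 nt or more. Of the 69 higher at Jk1, 24 had lost under 10 nt, 15 had lost 130 to 149 nt and none had lost 160 nt or more. Of the 61 higher at the substrate, 17 had lost under 10 nt, 2 had lost 130 to 149 nt and 19 had lost 160 nt or more. Of the 24 near structures higher at Jk1, 7 had lost 4 nt from the 5'-ending strand and 7 had lost 6 nt. Of the 17 near structures higher at the substrate, 5 had lost 2 nt. All tested structures included 104 near ones, which were not counted by single loss. The counts at 4, 6 and 2 nt thus have no background and are a description. By kind, 47.9% of all structures tested had 5' overhangs, 47.4% had 3' overhangs and 4.62% were blunt. The Jk1 structures were 42 with 5' overhangs, 19 with 3' overhangs and 8 blunt. The substrate structures were 32, 22 and 7.

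At Jk1 the far structures among the 3 most abundant of a table had short 5' overhangs. A 4-nt 5' overhang, at losses of 135 nt (5'-ending strand) and 139 nt (3'-ending strand), held 3.53%, 3.47% and 1.90% at Jk1 in H2AX line 5, H2AX line 8 and 53BP1 line B. A second 4-nt 5' overhang, at 125 and 129 nt, held 3.06%, 2.48% and 0.529%. A 1-nt 5' overhang at 137 and 138 nt held 1.03%, 3.74% and 1.60%. No substrate table listed any of these, and all were called. They were named for their rank at Jk1, so their calls are a description. The first 2 were lowest in 53BP1 line B, and the third was highest in H2AX line 8. In 53BP1 line B a 9-nt 5' overhang, at 123 and 132 nt, held more than the second, at 1.55%. The Lig4-/- lines listed the first at 0.882% and 1.32% at Jk1 and not at the substrate.

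At the substrate the leading structure of both H2AX lines was a blunt far end. The end with 170 nt lost from each strand held 4.21%, 2.46% and 1.54% at the substrate and was listed in no Jk1 table (called). In 53BP1 line B it was not among the 3 most abundant structures. Its share was 1.98% and 0.00711% in the 2 Lig4-/- lines. Next by mean difference between the sites, though not by abundance, came a 2-nt 5' overhang at 109 and 111 nt. It held 1.07%, 1.81% and 0.889% at the substrate and was listed at Jk1 in H2AX line 5 alone, at 0.00117% (called). The other leading substrate structures varied between the lines. A 12-nt 3' overhang at 167 and 155 nt held 1.98% in H2AX line 5 and stood in no other table of these lines. A 2-nt 5' overhang at 169 and 171 nt held 2.10% in H2AX line 8 and 0.00137% in 53BP1 line B and was not listed in H2AX line 5. A 1-nt 5' overhang at 170 and 171 nt held 0.00310%, 0.552% and 1.95% in H2AX line 5, H2AX line 8 and 53BP1 line B. A 1-nt 5' overhang at 168 and 169 nt held 0.298% in H2AX line 8 and 1.85% in 53BP1 line B and was not listed in H2AX line 5. A 5-nt 3' overhang at 168 and 163 nt held 1.85%, 0.804% and 0.000685% in the order of lines above. None of these last 5 was called. All structures of this paragraph were named for their rank at the substrate, so the calls are a description.

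Neither site was dominated by a few structures. The most abundant structure held 3.53%, 3.74% and 3.30% of reads at Jk1 and 4.21%, 2.46% and 2.34% at the substrate. The 10 most abundant held 17.5%, 21.5% and 16.96% at Jk1 and 18.8%, 15.1% and 15.996% at the substrate. The sites overlapped in both measures. In the Lig4-/- lines the 10 most abundant held 51.7% and 36.8% at Jk1 and 33.4% and 29.2% at the substrate.

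The kind of end was compared next. A 5' overhang leaves the 5'-ending strand longer, a 3' overhang the 3'-ending strand, and a blunt end neither. Among ends that had lost 100 nt or more, 5' overhangs were more frequent at Jk1 in every line. They made up 61.6%, 63.1% and 72.2% of such ends at Jk1 and 31.1%, 45.7% and 68.7% at the substrate. Both H2AX lines were far lower at the substrate, while 53BP1 line B was high at both sites. The difference was 17.1 ± 13.5 points (SD, n = 3 lines; called, largest adjusted p = 2.62e-128 in Fisher's exact test). It stayed called in every alternative for this class except with each structure counted once, which gave 6.16 points (largest adjusted p = 0.624 in Fisher's exact test). In the 2 Lig4-/- lines it was 21.6 and -1.58 points.

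Blunt ends among those far ends went the other way. They made up 2.03%, 5.37% and 2.96% at Jk1 and 12.1%, 15.8% and 8.10% at the substrate, with no overlap between the sites. The difference was -8.54 ± 2.96 points (SD, n = 3 lines; called), and -4.85 points without the blunt end at 170 nt (called). With the window ended 20 nt earlier it was -1.68 points (called). With each structure counted once it was -1.41 points and not called (largest adjusted p = 0.835 in Fisher's exact test). In the Lig4-/- lines it was -39.1 and -13.2 points.

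3' overhangs among far ends made up 36.4%, 31.5% and 24.8% at Jk1 and 56.8%, 38.5% and 23.2% at the substrate. The lines differed in direction, by -20.4, -7.00 and 1.65 points, and the class was not called. Among ends that had lost 50 to 99 nt, 3' overhangs made up 51.2%, 34.5% and 31.3% at Jk1 and 48.96%, 31.7% and 26.3% at the substrate. The difference there was 3.33 ± 1.46 points (SD, n = 3 lines; called, largest adjusted p = 0.000238 in Fisher's exact test). It was small beside the spread of 22.7 points between lines at a site, and it turned to -0.231 points with each structure counted once. At losses of 10 to 49 nt both H2AX lines had fewer 3' overhangs at Jk1, by -33.3 and -22.3 points, and 53BP1 line B had more, by 13.3 points. No kind was called at losses under 50 nt.

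**Figure D4:**
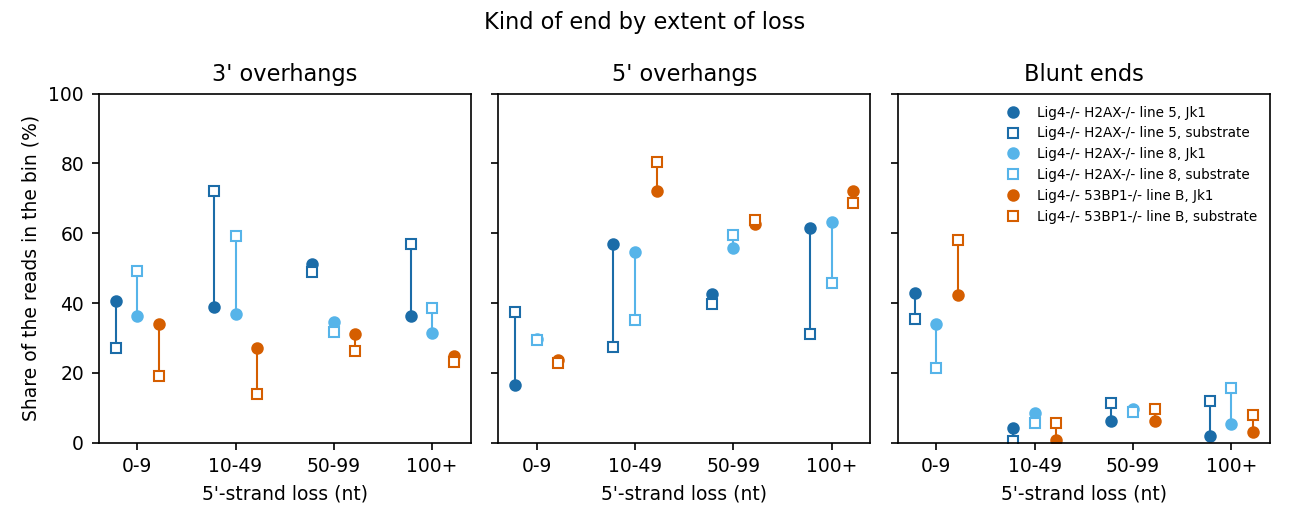
Share of 3' overhangs, 5' overhangs and blunt ends (vertical axes, % of the reads in each bin) by loss from the 5'-ending strand (horizontal axes, nt), with filled circles for Jk1, open squares for the substrate and a line joining both sites of a cell line. At 100 nt or more, 5' overhangs are higher at Jk1 in all 3 lines and blunt ends are higher at the substrate in all 3 lines.

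Over all ends in the window, 3' overhangs held 39.7%, 33.0% and 27.2% of reads at Jk1 and 57.0%, 39.9% and 23.0% at the substrate. Both H2AX lines were lower at Jk1 and 53BP1 line B was higher, so the class was not called (-6.68 ± 10.8 points, SD, n = 3 lines). 5' overhangs held 52.3%, 56.2% and 63.5% at Jk1 and 32.0%, 45.5% and 66.7% at the substrate (9.29 ± 11.9 points, SD, n = 3 lines; not called). The sign of 53BP1 line B varied with the limit on loss. With the limit applied to both strands, its 3' overhang difference was -0.369 points and its 5' overhang difference 3.45 points. With all positions they were -3.59 and 3.87 points, and with the window ended 20 nt earlier they were -3.46 and 3.16 points. Among ends that had lost less than 100 nt its opposite sign was larger, at 9.87 points for 3' overhangs and -11.8 points for 5' overhangs. Under each of the other 3 limits all 3 lines had fewer 3' overhangs and more 5' overhangs at Jk1, and both classes were called. In the Lig4-/- lines, 3' overhangs differed by -3.62 and 4.96 points.

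By length, only 3' overhangs of 5 to 9 nt were called. They held 9.04%, 5.34% and 2.92% at Jk1 and 13.7%, 9.30% and 4.16% at the substrate, a difference of -3.27 ± 1.80 points (SD, n = 3 lines; largest adjusted p = 5.55e-135 in Fisher's exact test). Both sites were highest in H2AX line 5 and lowest in 53BP1 line B. 3' overhangs of 1 to 4 nt differed by -5.27, -5.26 and 2.28 points. 5' overhangs of 1 to 4 nt differed by 12.5, 5.54 and -1.003 points. 5' overhangs of 10 nt or more held 24.4% at Jk1 and 25.4% at the substrate in 53BP1 line B, against 4.34% to 12.2% over both sites of the H2AX lines. That class differed more between those lines than between the sites. The median 3' overhang was 7, 4 and 10 nt at Jk1 and 6, 3 and 9 nt at the substrate. The median 5' overhang was 4, 4 and 7 nt at Jk1 and 4, 4 and 8 nt at the substrate, so both medians differed by at most 1 nt between the sites of a line.

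Blunt ends over all losses held 7.99%, 10.8% and 9.34% at Jk1 and 11.0%, 14.6% and 10.3% at the substrate. The difference of -2.62 ± 1.47 points (SD, n = 3 lines) was called (largest adjusted p = 6.02e-35 in Fisher's exact test), although the values overlapped between sites. Without the blunt end at 170 nt it was -0.127 points, with differences of 0.901, -1.69 and 0.407 points in the lines, and was not called. That structure was picked after seeing the data and is listed in no Jk1 table, so leaving it out could only lower the substrate share. Without each table's 10 most abundant structures the differences were 0.144, -5.95 and -2.31 points in the lines, also not called. The mean difference turned to 1.52 points with the window ended 20 nt earlier (called), and to 5.75 points among ends that had lost less than 100 nt (called). Within narrower ranges below 100 nt no blunt difference was called, since the lines differed in direction. At losses of 0 to 9 nt (42.2% and 58.1%) and 10 to 49 nt (0.805% and 5.57%), 53BP1 line B had fewer blunt ends at Jk1. Both H2AX lines had more there. At 50 to 99 nt 53BP1 line B (6.15% and 9.83%) and H2AX line 5 (6.11% and 11.3%) had fewer at Jk1. H2AX line 8 had more (9.73% and 8.78%).

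**Figure D5:**
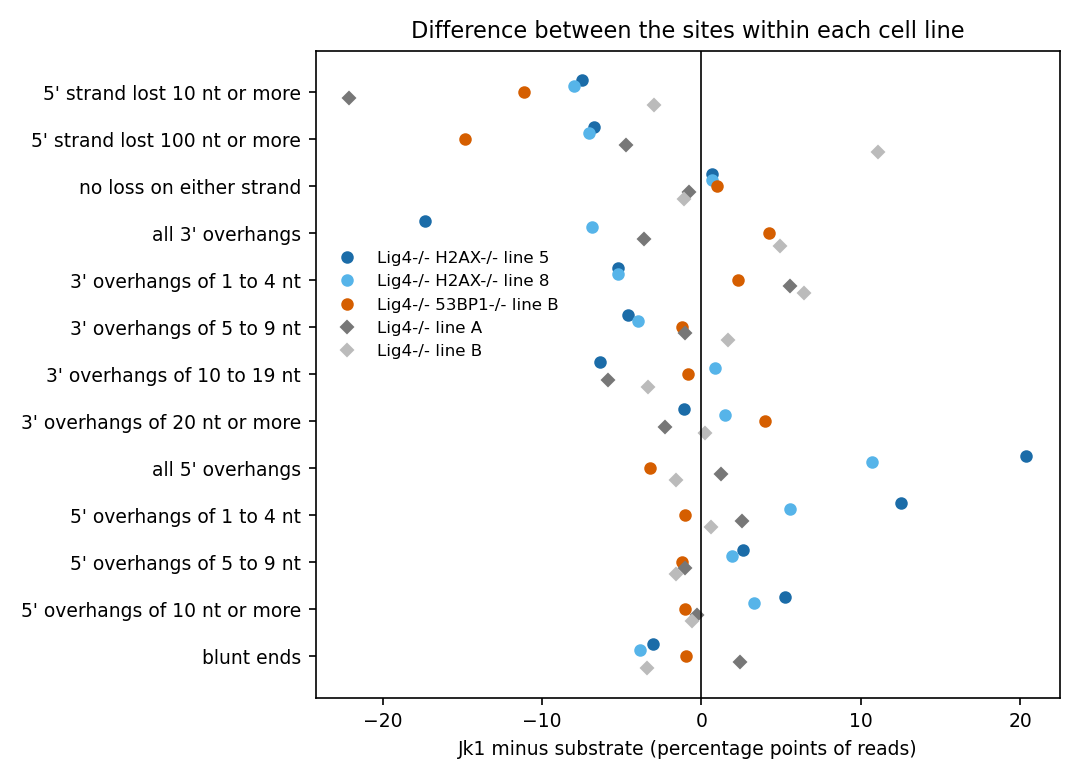
Jk1 minus substrate (horizontal axis, percentage points of reads) for 13 classes of ends (vertical axis), with circles for the 3 lines without H2AX or 53BP1 and diamonds for the 2 Lig4-/- lines. Circles lie left of 0 in all 3 lines for ends that lost 10 nt or more, for ends that lost 100 nt or more, for 3' overhangs of 5 to 9 nt and for blunt ends, and right of 0 for ends with no loss.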

How the data were processed

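Per the labels' protocols, the authors ligated genomic DNA with a single-stranded DNA ligase, treated it with bisulphite, amplified it and sequenced it on a MiSeq. The authors deposited, for each group, read counts per end structure, not normalised. Those of every RAG group used here were pooled over 3 libraries, unlike those of the KpnI control. The aligner, the read filters used and the genome build were not given in the sources used here. The deposited position and overhang columns were read as nt. A positive value was taken as a 3' overhang because 99.2% of 307425 reads of the KpnI control, which leaves a 4-nt 3' overhang, had the value 4. Every table used lists structures with 2 reads or more.

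Scipy 1.17.1 gave Fisher's exact and permutation tests, numpy 2.4.6 and pandas 2.3.3 (Python 3.11.15) the shares, and matplotlib 3.10.9 the plots. The calculation was tested on simulated data for the resected share only, with reads redrawn from these counts at a known share. The redraw added no spread between libraries or lines and no PCR copies, so it cannot test the calls against these. Structures named are the 3 most abundant of each table and the 3 largest mean differences in each direction that all lines share. The members, classes and rules were chosen with earlier results of these data known. Reads beyond the window were left out of the main values. No sequence of either site was at hand, so none is printed.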

Additional observations from a re-analysis of the deposited data

Results flagged for a closer look

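Some site differences had opposite signs in the H2AX lines and in 53BP1 line B, and the difference between these genotypes was not tested, since 1 line lacks 53BP1. For all 3' overhangs, Jk1 minus substrate was -12.1 points on average in the 2 H2AX lines and 4.21 points in 53BP1 line B. For all 5' overhangs it was 15.5 and -3.22 points. For 3' overhangs of 1 to 4 nt it was -5.26 and 2.28 points. For 5' overhangs it was 9.02 and -1.003 points at 1 to 4 nt, 2.25 and -1.20 points at 5 to 9 nt, and 4.27 and -1.01 points at 10 nt or more. With the window ended 20 nt earlier, the values of 53BP1 line B for all 3' and all 5' overhangs were -3.46 and 3.16 points, with the same signs as the H2AX lines. The signs were also the same with all positions of each table (-3.59 and 3.87 points) and with the limit on both strands (-0.369 and 3.45 points). Among ends that had lost less than 100 nt they were 9.87 and -11.8 points.

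Ends with no loss on either strand were more frequent at Jk1 in all 3 lines without H2AX or 53BP1, by 0.775 points on average, and less frequent at Jk1 in both Lig4-/- lines, by -0.956 points (exact permutation p = 0.20, the smallest possible).

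Reads beyond the shared window, which the comparisons leave out, made up 15.4% of substrate reads in H2AX line 5, 14.1% in H2AX line 8 and 13.6% in 53BP1 line B, against 3.36% and 1.19% in Lig4-/- lines A and B.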

How the results depend on the processing

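The difference in resected ends kept its direction and its call under every alternative but one. All values below are Jk1 minus substrate in points, averaged over the lines, and unless a reason is given the cause of a change was not tested. With each structure counted once, resected ends gave 2.47, ends shortened by 10 nt or more on both strands 4.28, blunt ends 0.320, 3' overhangs of 20 nt or more -0.968, ends with no loss -0.0104, and 3' overhangs and blunt ends at 50 to 99 nt -0.231 and 0.619. Ends with 100 nt or more lost gave -11.0, no longer called. The window moved the kinds of ends: with all positions of each table, 3' and 5' overhangs became called at -11.4 and 12.6, and 3' overhangs of 20 nt or more gave -2.41. With the limit on both strands they were called at -9.25 and 12.9. With the window ended 20 nt earlier, an alternative added after seeing the data, they were called at -14.6 and 13.04, ends with 100 nt or more lost gave 2.25, blunt ends 1.52 and 3' overhangs of 20 nt or more -1.57. Among ends that lost less than 100 nt, also added after seeing the data, 5' overhangs gave -1.98, blunt ends 5.75, 3' overhangs of 1 to 4 nt 6.34 and of 20 nt or more -0.507, 5' overhangs of 1 to 4 nt -0.905 and of 10 nt or more -2.63, and ends with no loss -0.254. 5' overhangs were called at 14.0 among resected ends. Blunt ends lost their call at -0.671 without the most abundant structure of each table, at -2.70 without the 10 most abundant and at -0.127 without the leading blunt structure of the substrate, an alternative added after seeing the data. Without the 10 most abundant, ends with no loss gave -0.392 and blunt ends at 0 to 9 nt -5.65. With loss counted from the position most used by the Lig4-/- lines, 5' overhangs at 50 to 99 nt gave 1.96. Run set 4 alone leaves out H2AX line 8; it gave 125 structures higher at Jk1 and 97 higher at the substrate, blunt ends at 0 to 9 and 10 to 49 nt of -4.33 and -0.556, and 5' overhangs at 50 to 99 nt of 0.830. Leaving out each line in turn gave 108 to 152 structures higher at Jk1 and 97 to 162 higher at the substrate. The same runs gave -12.1 to -1.34 for 3' overhangs and 3.76 to 15.5 for 5' overhangs, called without 53BP1 line B, -10.3 to 0.632 for 5' overhangs at 0 to 9 nt, -4.33 to 9.94 and -1.02 to 3.18 for blunt ends at 0 to 9 and 10 to 49 nt, and -2.53 to 0.830 for 5' overhangs at 50 to 99 nt. The contrast with the Lig4-/- lines for resected ends turned to -1.92 with structures counted once, -3.40 without the 10 most abundant, -4.41 with a threshold of 20 nt, -1.002 with both strands and -1.75 below 100 nt. That contrast for ends with no loss turned to -0.0192 with structures counted once, -0.392 without the 10 most abundant, and -3.96 from the position most used by the Lig4-/- lines. No paired analysis was possible at the level of libraries because each table pools its 3 libraries and carries no replicate number.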
